A study of Mus musculus with 24 samples.

Results

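The microRNAs (miRNAs) mmu-miR-23a, mmu-miR-23b, mmu-miR-24, mmu-miR-27a and mmu-miR-27b are the guide strands of 2 gene clusters of the mouse. They were taken by name from the assays of a TaqMan real-time PCR card, with the passenger (star) strands left out, and make up 5 of the 584 miRNA assays of the series. Of the 5, 4 were measured, since mmu-miR-23a gave no value on any array. The study profiled miRNAs of muscle stem cells from male C57BL/6 mice of 8 weeks, on 24 arrays. Quiescent cells (QSC) made up the 0 h group, and activated cells (ASC) were taken 36, 60 and 72 h after muscle injury. Each group had 3 replicates, each run on a card A with 375 miRNA assays and a card B with 209. The series describes the replicates as technical, so the errors and p-values below cover the spread between repeated measurements and not that between mice. Neither a cell sort nor the injury agent is named in the labels.

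A miRNA hairpin is cut into a guide strand, which pairs with messenger RNAs through its seed near the 5′ end, and a passenger strand that is mostly degraded. Hairpins of a cluster are transcribed together as part of the same primary RNA, and each is then cut out and its strands kept or degraded on their own. In mouse muscle, miR-27 is known to target the transcription factor Pax3, which holds muscle progenitors in an early state, and myostatin, a secreted inhibitor of muscle growth. The miR-23 seed family is known for the enzyme that breaks down glutamine in human cells and for the muscle atrophy ligases MAFbx and MuRF1, and miR-24 for cell cycle and differentiation genes of muscle and other cells.

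In RefSeq on GRCm38.p6, the hairpins of miR-23a, miR-27a and miR-24-2 lie within 404 bp at chr8:84208518-84208921 on the plus strand, with no other annotated gene over them in the table used. The hairpins of miR-23b, miR-27b and miR-24-1 lie within 792 bp at chr13:63300484-63301275 on the plus strand, inside the gene Aopep, which encodes an aminopeptidase. The guide strands other than that of miR-23b are shown because the assays rest on small differences between them, with the seed (bases 2 to 8) in capitals.
mmu-miR-23a-3p, chr8:84208563-84208583: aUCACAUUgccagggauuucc
mmu-miR-27a-3p, chr8:84208727-84208747: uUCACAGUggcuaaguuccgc
mmu-miR-27b-3p, chr13:63300760-63300780: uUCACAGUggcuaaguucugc
mmu-miR-24-3p, chr8:84208875-84208896 and chr13:63301251-63301272: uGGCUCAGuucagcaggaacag
The mature miR-24 of both clusters is the same sequence, so its assay reads the sum of both hairpins. The guide strands of miR-27a and miR-27b share a seed and differ at 1 of 21 bases, C19U counted from 1 at the 5′ end of miR-27a. How far either miR-27 assay also reads the other strand was not tested, but the values of the 2 assays moved apart, as described below. The seed of miR-23a differs from that of miR-27. The annotation used held no mature guide strand of miR-23b, so its sequence is not shown. How far the mmu-miR-23b assay also reads miR-23a was not tested.

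The files give a threshold cycle (Ct) per spot, the PCR cycle at which the signal passes a threshold, so that 1 cycle less stands for about a doubling of RNA. The level of an assay was the mean Ct of the 4 U6 small nuclear RNA spots of its array minus its own Ct, a log2 scale. An assay counted as detected on an array where each of its spots had a Ct below 35, and between 181 and 212 assays of card A and 89 to 120 of card B were detected per array. A change was called where limma's adjusted p was below 0.05 and the fold at least 2. U6 moved against the other control RNAs of the arrays. On card A, relative to U6 and to 0 h, snoRNA202 changed by -0.88, -2.40 and -3.05 at 36, 60 and 72 h on the log2 scale, snoRNA135 by -0.22, -0.34 and -0.87, Y1 by 0.65, 0.11 and -0.32, and U87 by -0.15, -1.06 and -1.501. On card B, Y1 changed by 1.03, 0.26 and 0.72 and the other 3 had values below 0 at each time, as on card A. The median of all tested card A assays changed by 0.91, -0.49 and -1.37. Directions against 0 h are therefore given with the normalizer under which they turn, and differences between members of an array, which hold no normalizer, are given as well.

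The 4 measured members did not move together. Against U6, mmu-miR-23b was lower at every later time and ended 26.96-fold below its level in quiescent cells. mmu-miR-27a was 4.21-fold higher at 36 h and back to within 1.22-fold of its 0 h level at 72 h. mmu-miR-24 and mmu-miR-27b changed by less than 2-fold at 36 h and were 2.98-fold and 4.29-fold lower at 72 h, although both lay above their 0 h level when snoRNA202 replaced U6. The call of mmu-miR-24 at 72 h was also lost with snoRNA135 or the global mean of detected assays in place of U6.

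**Figure D1:**
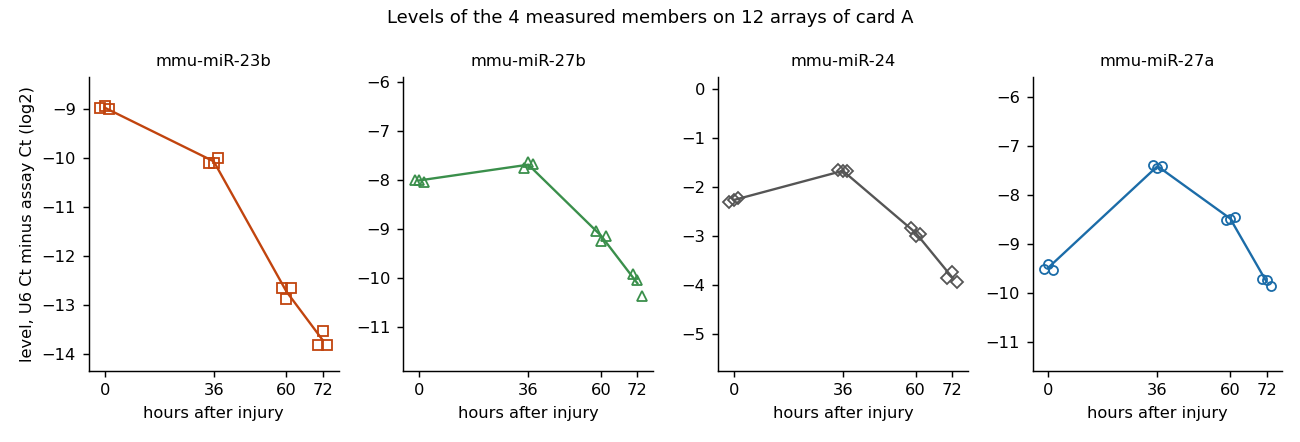
Level of each measured member (U6 Ct minus assay Ct, log2) on the 12 arrays of card A against hours after injury; symbols are single arrays, spread sideways for clarity, and lines join the means of 3 replicates. Each panel spans 6 log2 units; mmu-miR-23b was lower at each later time, and the other members peaked at 36 h.

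The assay of mmu-miR-23a gave no Ct on 12 of 12 arrays of card A, so it has no level and was in no test. On card A, 129 of 375 assays likewise gave no Ct on any array. No direction is drawn from it. Its cluster mates from chromosome 8 were measured, as described for mmu-miR-27a and the passenger strands.

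The mmu-miR-23b assay, whose seed family is known for glutamine use and muscle atrophy genes, read Ct 24.3, 24.3 and 24.4 at 0 h. It read 25.0, 25.0 and 24.9 at 36 h, then 28.1, 28.2 and 28.1 at 60 h and 29.0, 28.7 and 28.8 at 72 h. As levels against U6 these were -8.98, -8.94 and -9.01 at 0 h and -10.11, -10.11 and -10.01 at 36 h. The 3 arrays of each time lay close together and the 2 groups were far apart. The levels were -12.66, -12.88 and -12.66 at 60 h and -13.83, -13.54 and -13.82 at 72 h. No array of any time overlapped another time, and the order was 0, 36, 60 and 72 h from high to low. By limma, mmu-miR-23b fell by 1.10 ± 0.09 (SE, n = 3 per group) on the log2 scale at 36 h, which is 2.14-fold (adjusted p = 1.81e-06). It fell by 3.76 ± 0.09 at 60 h, or 13.5-fold (adjusted p = 6.94e-11), and by 4.75 ± 0.09 at 72 h, or 26.96-fold (adjusted p = 9.17e-12). From 36 to 60 h it was 6.32-fold lower against U6 (limma, adjusted p = 1.50e-09). The order of the steps depends on the normalizer. With the global mean the change was -2.39 from 0 to 36 h and -1.21 from 36 to 60 h. The further 1.99-fold difference from 60 to 72 h did not reach the fold required. With each of the 4 other normalizers mmu-miR-23b stayed below its 0 h level, by -2.39 to -0.22 at 36 h and by -4.75 to -1.70 at 72 h over the 5. The call at 36 h was lost with snoRNA202 at -0.22 and with snoRNA135 at -0.88.

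The mmu-miR-27b assay, from the same cluster and the miRNA known to target Pax3, read Ct 23.3, 23.4 and 23.4 at 0 h and 22.6, 22.5 and 22.6 at 36 h. At 60 h it read 24.4, 24.6 and 24.5, and at 72 h 25.0, 25.2 and 25.4. Its levels were -7.99, -7.99 and -8.03 at 0 h, -7.76, -7.63 and -7.67 at 36 h, -9.04, -9.23 and -9.13 at 60 h and -9.93, -10.04 and -10.36 at 72 h. The 36 h arrays lay just above the 0 h arrays without overlap, and the 72 h arrays were the lowest and the most spread. The difference at 36 h was 0.32 ± 0.10 on the log2 scale, 1.25-fold (limma, adjusted p = 0.0161), too small for a call. It turned to -0.33 with Y1 and -0.97 with the global mean of detected assays, and was 1.20 and called higher with snoRNA202. mmu-miR-27b was 2.19-fold lower at 60 h (limma, adjusted p = 2.78e-06) and 4.29-fold lower at 72 h (adjusted p = 1.57e-08) against U6. With snoRNA202 these turned to differences of 1.28 and 0.95 above the 0 h level. Going from 36 to 72 h it was 5.36-fold lower against U6 (limma, adjusted p = 4.88e-09), and also called lower with snoRNA135 and Y1. The call was lost with snoRNA202, at -0.25 ± 0.13, and with the global mean, at -0.10 ± 0.10.

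The mmu-miR-24 assay, which reads both clusters, gave the earliest signal of the 4, with Ct 17.6, 17.7 and 17.6 at 0 h and 16.5, 16.5 and 16.6 at 36 h. It read 18.2, 18.4 and 18.4 at 60 h and 19.0, 18.9 and 19.0 at 72 h. Its levels against U6 were -2.30, -2.26 and -2.23 at 0 h and -1.66, -1.67 and -1.67 at 36 h. The 36 h arrays were the highest and nearly equal. At 60 h the levels were -2.84, -3.00 and -2.97, and at 72 h -3.85, -3.74 and -3.93. No 2 times overlapped, but the differences between neighbours in the order 36, 0, 60 and 72 h were 1.51-fold, 1.59-fold and 1.87-fold, and none reached 2-fold. At 72 h mmu-miR-24 was 2.98-fold below 0 h (limma, adjusted p = 3.56e-09) and 4.51-fold below 36 h (adjusted p = 2.73e-10). The call at 72 h against 0 h was lost with snoRNA135, at -0.71, and with the global mean, at -0.54. From 36 to 72 h the call was lost with snoRNA202, and the change turned to 0.15 with the global mean. Against 0 h it was with snoRNA202 instead above its level at all 3 times, by 1.47, 1.74 and 1.47 on the log2 scale. At 36 h its 0.60 against U6 turned to -0.056 with Y1 and to -0.69 with the global mean.

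The mmu-miR-27a assay, from the cluster on chromosome 8 and with the same seed as mmu-miR-27b, read Ct 24.8, 24.8 and 24.9 at 0 h. It read 22.2, 22.3 and 22.3 at 36 h, 23.9, 23.9 and 23.9 at 60 h, and 24.8, 24.9 and 24.9 at 72 h. Its levels were -9.50, -9.42 and -9.52 at 0 h and -7.38, -7.44 and -7.40 at 36 h, the highest of the 4 times. At 60 h they were -8.51, -8.48 and -8.45, between the others, and at 72 h -9.72, -9.74 and -9.87, just below the 0 h arrays without overlap. mmu-miR-27a rose by 2.07 ± 0.06 (SE, n = 3 per group) on the log2 scale at 36 h, 4.21-fold (limma, adjusted p = 3.03e-10). At 60 h it was 2.002-fold higher than at 0 h (limma, adjusted p = 5.08e-08), at the edge of the fold required. Its log2 change there ranged from 0.98 to 1.03 when each array was left out in turn, and the call was lost without QSC replicate 1 or 3 or without 60 h replicate 3. It stayed above the 0 h level at 36 and 60 h with all 5 normalizers, from 0.78 to 2.95 and from 0.89 to 3.41. The difference was below 2-fold at 36 h with the global mean and at 60 h with Y1. At 72 h the difference was -0.29 ± 0.06, 1.22-fold (limma, adjusted p = 0.00077), and it was above 0 with each of the other 4 normalizers, from 0.034 to 2.76. From 36 to 72 h mmu-miR-27a was 5.15-fold lower against U6 (limma, adjusted p = 5.51e-11), and also called lower with snoRNA135 and Y1. The call was lost with snoRNA202, at -0.19 ± 0.09, and with the global mean, at -0.040 ± 0.05.

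The numbers of members called are set here beside the share of all tested assays of both cards called the same way. At 36 h against 0 h, 1 of 4 was higher (mmu-miR-27a) against 44.1% of 272 assays, and 1 of 4 was lower (mmu-miR-23b) against 12.1%. At 60 h against 0 h, 1 of 4 was higher against 28% of 250 assays, and 2 of 4 were lower against 36.4%. At 72 h against 0 h, none of the 4 was higher against 20.9% of 244 assays, and 3 of 4 were lower against 45.9%. The median change of the 4 members was 0.46, -0.90 and -1.84 at the 3 times, next to card A medians of 0.91, -0.49 and -1.37. Card B medians were 0.54, -0.16 and -0.28, so the shares of both cards need not be those of card A, which holds the members. From 36 h on, members and most other assays were lower against U6. From 36 to 60 h, 4 of 4 members were lower against 49.5% of 279 assays, and 5.38% of all assays were higher. From 36 to 72 h, 4 of 4 were lower against 69.3% of 270 assays, with 4.07% higher. From 60 to 72 h, 1 of 4 was lower (mmu-miR-27a, by 2.45-fold) against 35.8% of 265 assays, with 0.755% higher. These counts depend on U6. From 36 to 60 h, 3 of 4 members were called lower with snoRNA135 and 1 of 4 (mmu-miR-23b) with Y1, the global mean or snoRNA202. The card A median of that step was -1.27 with U6 but 0.26 with snoRNA202 and 0.18 with the global mean. From 36 to 72 h, 4 of 4 were called lower with snoRNA135 or Y1 and 1 of 4 (mmu-miR-23b) with the global mean or snoRNA202. From 60 to 72 h, 0 of 4 were called with any of the other 4 normalizers. The counts against 0 h under the other normalizers are in the closing section.

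**Figure D2:**
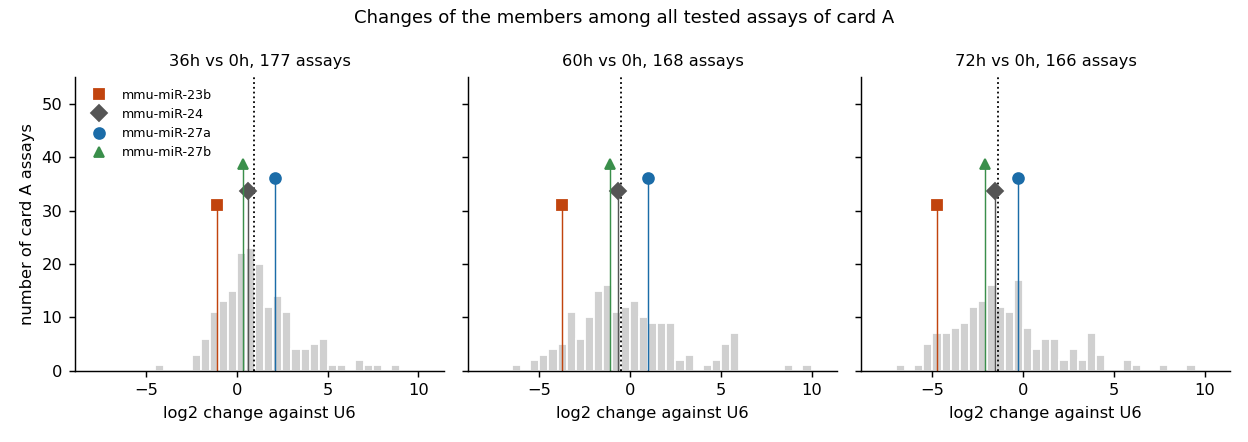
Number of card A assays (grey bars, 0.5 log2 units wide) by their log2 change against U6 at 36, 60 and 72 h from 0 h; coloured lines mark the 4 members and the dotted line the median assay. mmu-miR-23b lay toward the low end at each time and mmu-miR-27a above the median, while mmu-miR-24 lay near it.

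Set against the median assay of card A, the members kept a fixed order at the 3 times. The normalizer cancels from this difference by construction, so its equality to within 0.01 with the 5 normalizers is no separate support. mmu-miR-23b differed from the median by -2.01, -3.27 and -3.38 log2 units at 36, 60 and 72 h, with 18 of 177, 12 of 168 and 11 of 166 tested assays lower still. mmu-miR-27b differed from it by -0.59, -0.64 and -0.73 units, and mmu-miR-24 by -0.31, -0.18 and -0.21 units. mmu-miR-27a lay above the median by 1.16, 1.49 and 1.08 units, with 129, 119 and 108 assays lower. Thus only mmu-miR-27a of the 4 was above the median assay at all 3 times.

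**Figure D3:**
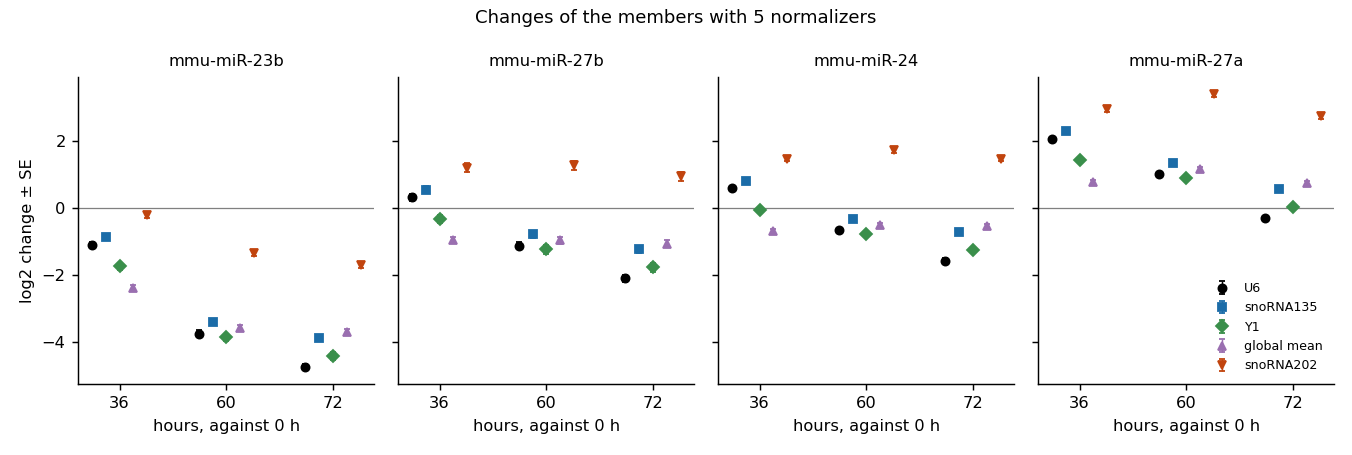
Log2 change of each member against 0 h (y axis, with the SE of the fit) at 36, 60 and 72 h with U6, snoRNA135, Y1, the global mean or snoRNA202 as the normalizer. At each time the normalizers are offset from each other by the same amounts in all panels. mmu-miR-23b stays below 0 in all cases, and snoRNA202 puts mmu-miR-27b and mmu-miR-24 above 0.

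The difference between 2 members of the same array holds no normalizer and shows whether they changed unequally, if both assays are equally efficient. All 6 pairs of the 4 measured members were tested over the 4 times, by an exact permutation test of the F statistic over 369600 arrangements of the 12 arrays, with Benjamini-Hochberg adjustment over the 6. mmu-miR-23b and mmu-miR-27b come from the same cluster, yet mmu-miR-23b minus mmu-miR-27b went from -0.97 log2 units at 0 h to -2.39, -3.60 and -3.62 at 36, 60 and 72 h. That shift of 2.65 units, 6.28-fold, compares with a largest SD of 0.25 between arrays of a time (exact permutation, adjusted p = 0.000779). mmu-miR-27a and mmu-miR-27b share a seed and differ in genome position. mmu-miR-27a minus mmu-miR-27b was -1.48 at 0 h and 0.27, 0.65 and 0.33 at 36, 60 and 72 h, a shift of up to 2.13 units or 4.38-fold (exact permutation, adjusted p = 0.000779). Since the 2 assays may differ in efficiency, the sign of the difference is not read. Unequal efficiency would also scale the shift over time, and the efficiencies were not tested. The pair that moved apart most was mmu-miR-23b and mmu-miR-27a, of different clusters. Their difference went from 0.50 at 0 h to -2.67, -4.25 and -3.96, a 27.1-fold shift (exact permutation p = 6.49e-05, the smallest it can give, adjusted p = 0.000195). mmu-miR-24 and mmu-miR-27b moved most alike. Their difference was 5.74, 6.02, 6.20 and 6.27, a shift of 0.53 units or 1.44-fold, which still passed the test (exact permutation, adjusted p = 0.00182). mmu-miR-24 also shifted against mmu-miR-27a, by 1.67 units (exact permutation, adjusted p = 0.000195), and against mmu-miR-23b, by 3.18 units (adjusted p = 0.000519).

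**Figure D4:**
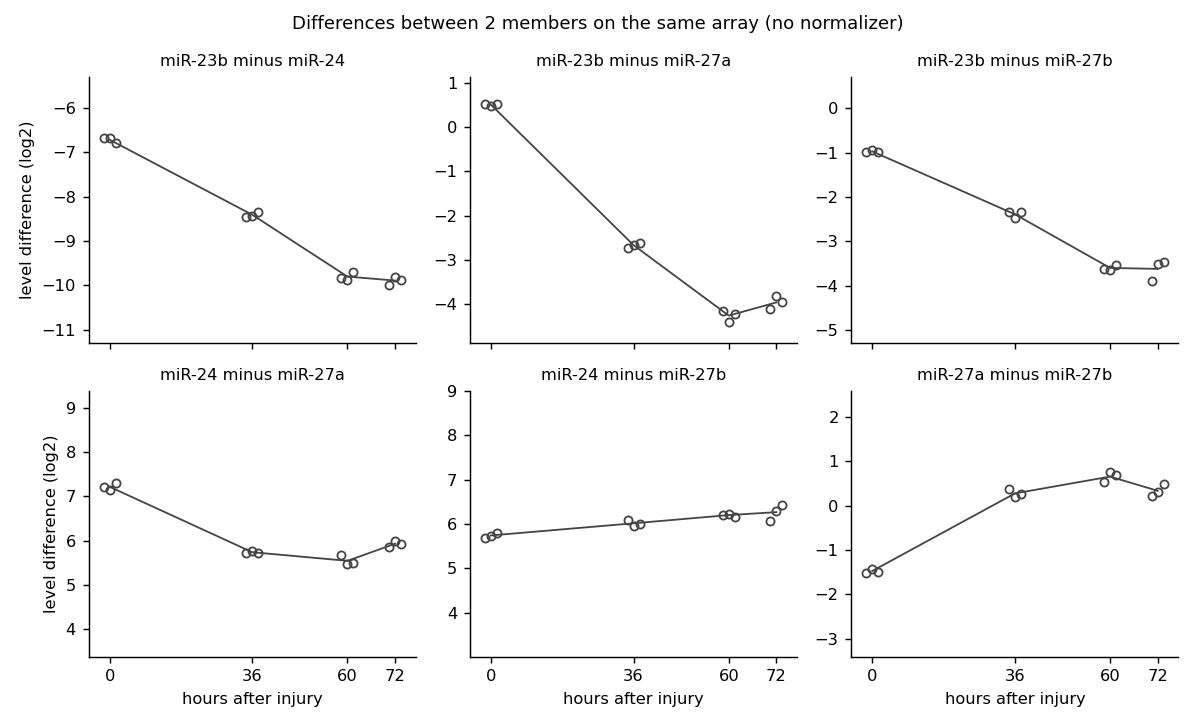
Level difference (log2) between 2 members on the same card A array against hours after injury for the 6 pairs; circles are single arrays and lines join the means of 3. Each panel spans 6 log2 units; the pairs with mmu-miR-23b shift most and mmu-miR-24 minus mmu-miR-27b shifts least, with single arrays between 5.69 and 6.43.

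The passenger strands of the hairpins were measured on card B and tell apart hairpins that the guide strands do not. They are shown with the seed in capitals, since miR-24-1 and miR-24-2 differ here while their guide strands are the same.
mmu-miR-27a-5p (assay mmu-miR-27a*), chr8:84208685-84208706: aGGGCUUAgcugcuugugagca
mmu-miR-24-2-5p (assay mmu-miR-24-2*), chr8:84208839-84208860: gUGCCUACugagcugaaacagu
mmu-miR-27b-5p (assay mmu-miR-27b*), chr13:63300718-63300739: aGAGCUUAgcugauuggugaac
mmu-miR-24-1-5p (assay mmu-miR-24-1*), chr13:63301213-63301235: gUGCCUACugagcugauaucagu
The passenger strands of miR-27a and miR-27b differ at 8 of 22 bases. Card B held 6 passenger assays of the clusters, 4 named for mouse and 2 for rat. The assay rno-miR-24-1* gave no Ct, and rno-miR-23a* was detected on 5 of 12 arrays, at 1 of 3 at 0 h, 2 of 3 at 36 and 60 h each, and none of 3 at 72 h. Its difference between 36 and 60 h was 0.58 ± 0.47 (limma, adjusted p = 0.308).

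The mouse assays of both passenger strands measured from the chromosome 8 cluster, mmu-miR-27a* and mmu-miR-24-2*, were higher at 36 and 60 h. mmu-miR-27a* had levels of -11.58, -11.41 and -11.21 at 0 h, -9.14, -9.04 and -9.16 at 36 h, -9.93, -9.93 and -9.94 at 60 h and -11.33, -11.14 and -11.23 at 72 h. The 36 and 60 h arrays stood clear of the rest, and the 0 and 72 h arrays overlapped. It was 4.87-fold higher at 36 h (limma, adjusted p = 1.59e-08) and 2.76-fold higher at 60 h (adjusted p = 5.28e-07), the times at which its guide strand was also called higher. mmu-miR-24-2* had levels of -13.10, -13.42 and -13.16 at 0 h and -10.21, -9.98 and -10.15 at 36 h. It had -11.38, -11.20 and -11.43 at 60 h and -12.22, -12.54 and -12.53 at 72 h, so no 2 times overlapped. It was 8.65-fold higher at 36 h (limma, adjusted p = 5.03e-09) and 3.70-fold higher at 60 h (adjusted p = 2.48e-07), while its difference of 0.80 log2 units at 72 h was not called. Both strands were called higher at 36 and 60 h with all 5 normalizers, the lowest log2 changes being 1.25 and 1.21 for mmu-miR-27a* and 2.08 and 1.63 for mmu-miR-24-2*. At 72 h mmu-miR-24-2* ranged from 0.076 to 3.41 over the 5 normalizers and was called higher with 3 of them. mmu-miR-27a* then ranged from -0.56 to 2.78 and was called higher with 1.

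The passenger strands of the chromosome 13 cluster changed less or were near the detection limit. mmu-miR-27b* had levels of -13.80, -13.70 and -13.07 at 0 h, -12.69, -12.20 and -12.60 at 36 h, -12.82, -12.83 and -13.15 at 60 h and -13.75, -13.71 and -13.46 at 72 h. The 36 h arrays were the highest, and the 0, 60 and 72 h arrays did not separate fully, since 1 of the 0 h arrays lay above 1 of the 60 h arrays. It was 2.04-fold higher at 36 h (limma, adjusted p = 0.0011) against U6, but its log2 change there was -0.0023 with the lowest of the 5 normalizers. mmu-miR-24-1* was detected on 2 of 3 arrays at 0 h and 3 of 3 at 36 h, and on none at 60 and 72 h. The spots of the third 0 h array read Ct 32.9 and 36.9, so it did not count as detected. The difference at 36 h was -0.36 ± 0.63 on the log2 scale over the detected arrays (limma, adjusted p = 0.622), and with that array the mean levels were -18.38 at 0 h and -18.32 at 36 h. No direction is given for it, while the log2 difference of the guide strand read from both hairpins was 0.60. Of the 4 passenger assays tested at 36 h, 3 were called higher, next to 44.1% of all tested assays of both cards. At 60 h it was 2 of 3 next to 28%, and at 72 h none of 3 next to 20.9%. Within an array, mmu-miR-27a* minus mmu-miR-27b* was 2.13, 3.38, 3.00 and 2.41 at the 4 times, and mmu-miR-24-2* minus mmu-miR-27b* was 0.30, 2.38, 1.59 and 1.21. These 2 differences between strands of different clusters were both largest at 36 h and were not tested.

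**Figure D5:**
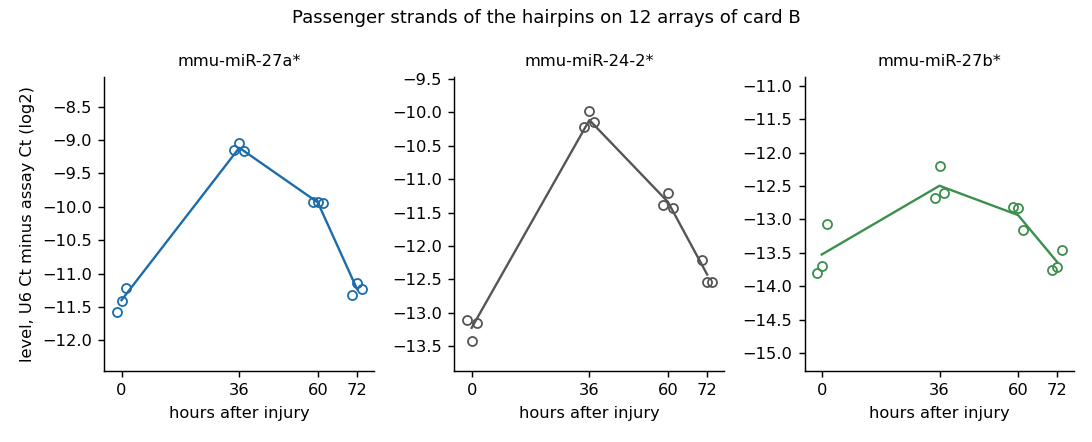
Levels of 3 passenger strands (U6 Ct minus assay Ct, log2) on the 12 arrays of card B against hours after injury; circles are single arrays and lines join the means of 3 replicates. Each panel spans 4.4 log2 units; mmu-miR-27a* and mmu-miR-24-2* stood 2.28 and 3.11 units above 0 h at 36 h and mmu-miR-27b* 1.03 units.

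The assays with profiles nearest to a member were found among 148 other card A miRNA assays detected on 12 of 12 arrays, by the root mean square difference of the 3 changes against 0 h, a distance in which the normalizer cancels. It is a description over 3 changes that share the 0 h arrays. Nearest to mmu-miR-23b were mmu-miR-708, mmu-miR-676 and mmu-miR-337-5p, at 0.15, 0.24 and 0.29 log2 units. Its cluster mate mmu-miR-27b was 2.31 units away, with 51 assays nearer. Nearest to mmu-miR-27b were mmu-miR-30b, rno-miR-381 and mmu-miR-361, at 0.22, 0.27 and 0.28 units, and mmu-miR-24 was 0.43 units away with 11 assays nearer. Nearest to mmu-miR-24 were mmu-miR-191, mmu-miR-324-3p and mmu-let-7d, at 0.11, 0.17 and 0.24 units. mmu-miR-27a was nearest to mmu-miR-324-5p, mmu-miR-103 and mmu-miR-872, at 0.28, 0.39 and 0.42 units, and 1.90 units from mmu-miR-27b with 69 assays nearer. For each of the 4 members an assay outside the clusters lay nearest, but 148 such assays were compared with only a few members. That alone therefore says little about the members of a cluster. mmu-miR-24 and mmu-miR-27b were the members nearest to each other, with 6 of 148 assays nearer to mmu-miR-24 than mmu-miR-27b was.

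Other miRNAs reported to act on Pax3, Pax7 or the muscle stem cell state moved in both directions. Of 9 listed, 8 were tested. At 36, 60 and 72 h against 0 h, 4, 5 and 5 of the 8 were higher, next to 44.1%, 28% and 20.9% of all tested assays, and 1, 3 and 3 were lower, next to 12.1%, 36.4% and 45.9%. Their median changes were 1.37, 1.87 and 2.69. mmu-miR-31, known to hold back translation of the muscle factor Myf5 in quiescent mouse cells, changed by 7.29, 9.93 and 9.01 on the log2 scale, and was called higher with all 5 normalizers. mmu-miR-489, known to maintain quiescence, changed by -1.40, -4.85 and -6.66, and was below 0 with all 5. Of the 4 measured members, mmu-miR-23b, at -1.10, -3.76 and -4.75, lay closest to mmu-miR-489 but fell less at all 3 times. The assays named above as nearest to mmu-miR-23b lay nearer to it than mmu-miR-489 did.

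Markers of muscle and of other cell types moved over the same arrays. Of all tested assays of both cards, 44.1%, 28% and 20.9% were higher at 36, 60 and 72 h, and 12.1%, 36.4% and 45.9% lower. All 4 muscle miRNAs of the list (miR-1, miR-133a, miR-133b and miR-206) were higher at 60 and 72 h. The same 4 are on the list of the paragraph above, so they are no separate result. Their summed level against U6 went from between -4.04 and -3.70 at 0 h to between -1.02 and -0.94 at 72 h. Both endothelial assays (mmu-miR-126-3p and mmu-miR-126-5p) were higher at 36 h and lower at 60 and 72 h against U6, with summed levels of -4.52 to -4.44 at 0 h, -2.29 to -2.28 at 36 h, -6.28 to -6.19 at 60 h and -6.42 to -6.40 at 72 h. With snoRNA202 mmu-miR-126-3p was above 0 h at all 3 times. So was mmu-miR-126-5p with the highest of the 5 normalizers, at 2.83, 0.64 and 0.81. Of 6 leukocyte assays, 5 were tested and 4 were higher at 36 h, the largest being mmu-miR-142-3p at 8.54 and mmu-miR-223 at 7.65 on the log2 scale. At 60 and 72 h, 3 and 2 of the 5 were higher and 1 was lower. mmu-miR-142-3p was then at 5.91 and 5.61 and mmu-miR-223 at 4.06 and 3.81 above 0 h, while mmu-miR-150 was at -3.67 and -4.21. The summed levels of the list, to which the most abundant assays add most, were -5.38 to -5.34 at 0 h, -3.72 to -3.65 at 36 h, -6.57 to -6.44 at 60 h and -7.42 to -7.28 at 72 h. Of 4 smooth muscle and mesenchymal assays, 3 were higher at 36 h and 3 lower at 60 and 72 h, with summed levels of -3.23 to -3.11, -2.76 to -2.70, -6.16 to -6.13 and -6.82 to -6.75 at the 4 times. With the highest of the 5 normalizers, mmu-miR-143 was instead above 0 h at 60 and 72 h, by 0.32 and 0.78. mmu-miR-214 was then at 0.93 and 1.34, while mmu-miR-145 stayed below 0 h, at -1.82 and -1.88. The erythroid miR-451 was not detected at 0 h and had levels of -14.07 to -12.99 at 36 h. mmu-miR-24, mmu-miR-27a and mmu-miR-27b had their highest levels against U6 at 36 h, as did the lists of these other cell types. The median tested card A assay was also highest then, at 0.91, -0.49 and -1.37 from 0 h at 36, 60 and 72 h. With the global mean, mmu-miR-24 and mmu-miR-27b were below 0 h at 36 h, at -0.69 and -0.97, and mmu-miR-27a above, at 0.78. The part that other cell types had in the members' levels was not tested. In RNA of a mixed sample, fewer cells of a type and less RNA per cell cannot be told apart.

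The authors' deposited table gives mean folds against day 0 for the same assays. For mmu-miR-23b the authors' deposited table has 0.467 at day 1.5 and 0.0740 at day 2.5, for mmu-miR-24 1.51 and 0.629, for mmu-miR-27a 4.21 and 2.001, and for mmu-miR-27b 1.25 and 0.457. The last time point of the authors' deposited table is headed day 3.5, whereas the labels give 72 h, and its folds were 0.0372, 0.335, 0.818 and 0.234 in the same order.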

How the data were processed

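Levels came from 12 arrays of card A and 12 of card B, each deposited as 1 Ct value per spot. Per the labels, RNA was isolated with Trizol and run on rodent TaqMan cards v2.0 for 40 cycles. Which software set the Ct is not given in the sources used here. Each card type, A or B, of an array was read from its assay names. The authors also deposited fold ratios against day 0, copied here as given, and 84 other per-sample columns were not used.

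The 5 members and all lists were chosen with earlier results of these data known. Spots of an assay were averaged, and an assay with any spot at Ct 35 or more, or with none, was left out on that array. All assays of a card were fitted with limma 3.58.1 in R 4.3.3 over 4 groups of 3, where at least 2 replicates of both groups were detected. Adjusted p is Benjamini-Hochberg over the tested assays of both cards per comparison. The fit was tested on simulated data. Pairs of members were tested by exact permutation. The text names the members, the passenger strands of their hairpins, the 3 assays nearest to each member and the largest changes of the other lists. Other normalizers (snoRNA202, snoRNA135, Y1 and the global mean), 2 other detection limits, a filter, a fit of 2 groups, the replicate block and leaving out each array were tried. Sequences are from RefSeq (GRCm38.p6). The number of arrays limits the precision, and no 2 arrays held identical values.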

Additional observations from a re-analysis of the deposited data

How the results depend on the processing

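All 24 changes of members between times kept their call with U6 averaged over the group and with detection limits of Ct 32 and Ct 40. They also kept it with assays detected on 12 arrays alone, with 2 groups in the fit and with the replicate number as a block. Their log2 changes could not move under these settings, as groups were balanced and the measured members read below Ct 32 on 12 of 12 arrays. Only the errors and adjusted p could. Under the replicate block the adjusted p of the 6 pairs (exact permutation) lay between 0.00521 and 0.0122. Correlations of same-numbered deviations ran from -0.27 to 0.36 on card A, where no 2 times had all 3 above 0.1. On card B they were 0.49, 0.49 and 0.34 for 0 and 60 h but -0.43, -0.33 and -0.38 for 36 and 60 h, so the numbers did not pair the samples throughout. All 19 changes of passenger strands with a result under the replicate block kept their call. The change of rno-miR-23a* from 36 to 60 h, tested in the main fit, had no result there. The normalizer moved more, and its cause was not tested. With snoRNA202, log2 changes at 36 h against 0 h were -0.22 for miR-23b, 1.47 for miR-24 and 1.20 for miR-27b. At 60 h they were 1.74 for miR-24 and 1.28 for miR-27b, and at 72 h 1.47, 2.76 and 0.95 for miR-24, miR-27a and miR-27b. From 36 to 60 h they were 0.26, 0.46 and 0.077 for these 3. Members called higher against 0 h were then 3, 3 and 2, and lower 0, 1 and 1, at 36, 60 and 72 h. With snoRNA135 the values were -0.88 for miR-23b at 36 h, -0.79 for miR-27b at 60 h, and -0.71 for miR-24 and 0.57 for miR-27a at 72 h, with 0 members lower at 36 h and 1 at 60 h. With Y1 they were -0.056 for miR-24 and -0.33 for miR-27b at 36 h, and 0.89 at 60 h and 0.034 at 72 h for miR-27a, with 0 members higher at 60 h. With the global mean they were -0.69, 0.78 and -0.97 for miR-24, miR-27a and miR-27b at 36 h, -0.97 for miR-27b at 60 h, and -0.54 for miR-24 and 0.74 for miR-27a at 72 h. From 36 h, miR-24 was then 0.18 at 60 h and 0.15 at 72 h, and miR-27a 0.38 at 60 h, with 0 members higher at 36 h and 1 lower at 60 h. Over all assays, 120 were higher and 33 lower at 36 h with U6, against 180 and 6 for snoRNA202, 75 and 68 for Y1 and 59 and 89 for the global mean. At 60 h 70 and 91 became 179 and 20 with snoRNA202. At 72 h 51 and 112 became 166 and 24 under snoRNA202 and 72 and 79 under the global mean. Leaving out each array gave 0.98 to 1.03 for miR-27a at 60 h and 0 to 1 members higher there, and the 6 pairs kept their calls. Between 60 and 72 h, leaving out arrays moved the number of members lower from 1 to as many as 3, as miR-23b and miR-27b passed 2-fold. The tests against 0 h share the 0 h arrays. Technical replicates cannot show the spread between mice, and a level or a change compared between assays assumes equal efficiency.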
